A study of Mus musculus with 24 samples.

Results

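The last week of osteogenic culture in wild-type (WT) primary osteoblasts (OBs) was followed here, from day 14 to day 21 after seeding. Its members are the WT libraries labeled with these 2 time points, 4 at day 14 and 4 at day 21 (replicates 1 to 4), which make up 8 of the 24 libraries of the series. The cells came from the parietal bones of mouse pups in their first week of life and were kept under osteogenic differentiation conditions. Each culture held cells pooled from a number of pups, so the replicates are not single animals. The study's methods describe 2 separate experiments, with cells of different litters, plating densities and oxygen levels, and several wells from one preparation in the second, and the labels do not say which replicate came from which. Some of the 4 replicates can therefore be wells of one preparation, every n = 4 below counts libraries and not independent preparations, and the p-values measure the spread between these libraries. The other libraries are WT OBs at day 8 and heterozygous OBs (Het G610C, one allele of Col1a2 with a glycine substitution in the collagen I triple helix) at days 8, 14 and 21. The study compared the genotypes with days 14 and 21 pooled, since it described its key genes as similarly transcribed at both. All groups shared the C57BL/6J background and a medium with serum and ascorbic acid 2-phosphate, and WT OBs differ from Het G610C OBs in lacking the substitution. A culture can also hold cells that do not make collagen I.

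An OB secretes type I procollagen, which is folded and hydroxylated in the endoplasmic reticulum (ER), trimmed outside the cell, crosslinked and mineralized. OBs that become buried in the matrix turn into osteocytes, which switch on their own set of matrix and signaling genes. OBs and osteocytes also control the macrophage lineage through colony stimulating factor and RANKL, which lead macrophages toward the bone-resorbing osteoclast.

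The values are raw read counts per gene. Each was scaled to the study's housekeeping genes in its own library (geometric mean over Sdha, Mrfap1, Actb and Actg1) and is printed as relative quantity (RQ), the reads of a gene per 1000 reads of that mean. RQ is not divided by transcript length, so it compares libraries for one gene and not genes with each other. The 8 libraries held between 24234653 and 59734231 counted reads. Replicate 1 held 24549897 at day 14 and 24234653 at day 21, and every other library at least 42085473. Collagen I identified the cells as collagen-producing: Col1a1 and Col1a2 together took 7.34% of all reads in replicate 1 at day 14 and between 12.02% and 14.7% in the other 7 libraries.

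Replicate 1 stood apart at both days. It also had the fewest reads at both days, and the part of read depth in this separation was not tested. The root mean square distance between 2 libraries of the same day, over the log2 levels of all tested genes, was 0.256 to 0.311 among replicates 2 to 4 and 0.592 to 0.695 where replicate 1 was one of the pair. Libraries of different days within replicates 2 to 4 lay 0.442 to 0.501 apart. The largest source of variation among these libraries was therefore replicate 1 and the next was the day, so list counts are also given without replicate 1 where they differ by more than 1.5 times.

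**Figure D1:**
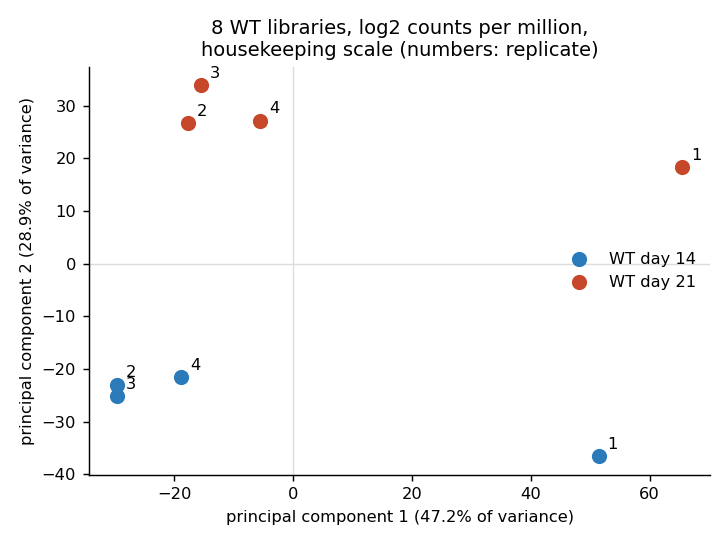
Principal components of the 8 WT libraries (log2 CPM on the housekeeping scale, 18633 genes); points are libraries, colors are days and numbers are replicates. The horizontal axis (47.2% of the variance) sets replicate 1 of both days apart at 51.4 and 65.5, and the vertical axis (28.9%) separates day 14, all below zero, from day 21, all above it.

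Between day 14 and day 21, 2749 of 18633 tested genes changed (14.8%; edgeR quasi-likelihood test, Benjamini-Hochberg adjusted p under 0.05, called below). Of these, 1708 were higher at day 21 (9.17%) and 1041 were lower (5.59%). Large changes were mostly rises, since 462 of the called genes at least doubled their mean RQ and 94 fell to at most 50% of it. The median log2 fold change over all tested genes was 0.024. With TMM scaling in place of the housekeeping genes, 3650 genes were called (19.6%) and split into 1880 higher (10.1%) and 1770 lower (9.5%). The calls depended on which replicate number was left out: without replicate 1 of both days 5336 genes were called (28.6%; 18.3% higher and 10.4% lower), without replicate 2 or 3 only 533 and 559, and without replicate 4 none (0 of 18450 by edgeR, 0%), although 3383 genes then had an unadjusted p under 0.05. With the replicate number as a block 2465 genes were higher (13.2%) and 1533 lower (8.23%). The deviations of same-numbered libraries from their day's mean correlated at 0.271 to 0.644, but libraries of different numbers among replicates 2 to 4 did so at 0.136 to 0.412, so the block mainly separates replicate 1 from the rest. The list counts below are to be read against these shares of all tested genes: 9.17% higher and 5.59% lower, 18.3% and 10.4% without replicate 1, 13.2% and 8.23% with the block, and 10.1% and 9.5% with TMM scaling.

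Collagen I transcripts showed no difference between the days that passed the test. Col1a1 RQ was 82626, 161410, 168420 and 138440 in replicates 1 to 4 at day 14 and 130190, 157450, 165590 and 153620 at day 21 (log2 fold change 0.14 ± 0.20 (SE), adjusted p = 0.702). The 2 days overlapped, and only replicate 1 moved clearly, upward. Col1a2, which encodes the other collagen I chain, behaved alike, with a mean RQ from 124750 ± 30728 to 146230 ± 5063 (SD, n = 4; log2 fold change 0.23 ± 0.16 (SE), adjusted p = 0.396). For both chains the difference was within the spread between replicates. At day 8 the mean RQ of Col1a1 was 36181.

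Some osteocyte genes rose. Mepe, a phosphoglycoprotein made by osteocytes in mineralizing bone, had an RQ of 116, 28.1, 40.96 and 57.9 in replicates 1 to 4 at day 14 and 484, 224, 191 and 301 at day 21 (log2 fold change 2.32 ± 0.46 (SE), adjusted p = 0.0128). Every day 21 value lay above every day 14 value, and Mepe was almost silent at day 8 (mean RQ 0.266). Of the 12 tested genes of the osteocyte list, 4 were higher and 1 lower (9.17% and 5.59% of all tested genes). Besides Mepe the risers were Ackr3, a chemokine scavenger receptor (log2 fold change 0.88 ± 0.22 (SE), adjusted p = 0.0294), Ptprz1, a receptor phosphatase (0.73 ± 0.19, adjusted p = 0.0315), and Capg, an actin-capping protein (0.63 ± 0.14, adjusted p = 0.0182). The rise of Ackr3 was smaller without replicate 1 (log2 fold change 0.55, adjusted p = 0.00153), and the call of Ptprz1 was lost under TMM scaling (adjusted p = 0.0556). Capg rose less in replicate 1 (log2 ratio of 0.38) than in replicates 2 to 4 (0.74), as the macrophage markers below did. The part of macrophages in its rise was not tested. Pdpn, a membrane glycoprotein of early osteocytes, fell from an RQ between 165 and 170 in the 4 day 14 libraries (log2 fold change -0.33 ± 0.07 (SE), adjusted p = 0.0215).

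Sost, the osteocyte inhibitor of Wnt signaling, is listed among the same genes. Its RQ was 24.03, 113, 177 and 96.9 in replicates 1 to 4 at day 14 and 149, 266, 184 and 188 at day 21 (log2 fold change 0.93 ± 0.46 (SE), adjusted p = 0.215), so the difference did not pass the test and the days overlapped. Within each replicate number it was higher at day 21 (log2 ratio of 2.63 in replicate 1 and 0.72 in replicates 2 to 4), and without replicate 1 it was called (log2 fold change 0.72, adjusted p = 0.022). Dmp1, an osteocyte matrix phosphoprotein, stood at 140.5, 176, 151 and 153 at day 14 and 289.8, 139, 139 and 196 at day 21 (log2 fold change 0.29 ± 0.22 (SE), adjusted p = 0.427), a rise in replicates 1 and 4 and a drop in replicates 2 and 3. Fgf23, an osteocyte hormone, had at most 1 read in any of the 8 libraries.

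Of 19 tested genes of OB bone matrix and mineralization, only Ank, a pyrophosphate and ATP transporter, passed the test (log2 fold change 0.23 ± 0.06 (SE), adjusted p = 0.0297). The median log2 fold change of the list was 0.23, against 0.024 for all tested genes. Bglap encodes osteocalcin, the bone Gla protein of mature OBs. Its RQ was 130.4, 498, 608 and 401 in replicates 1 to 4 at day 14 and 795, 1109.6, 895 and 825 at day 21, with no overlap between the days (log2 fold change 1.14 ± 0.38 (SE), adjusted p = 0.0753; with the replicate block, adjusted p = 0.0236). For Ibsp, bone sialoprotein, RQ was 15446, 10288, 9299.6 and 11206 at day 14 and 34326, 13257, 15962 and 21257 at day 21, higher at day 21 within each replicate number (log2 fold change 0.87 ± 0.29 (SE), adjusted p = 0.0737; with the replicate block, adjusted p = 0.00723). With the block 4 genes of this list were higher and 1 lower, and without replicate 1 these counts were 9 and 2.

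Among 20 OB lineage transcription factors 3 fell and none rose (3 and 1 without replicate 1). Tcf7, a Wnt-responsive factor, went from 151 ± 26.99 to 92.4 ± 12.8 (SD, n = 4; log2 fold change -0.71 ± 0.14 (SE), adjusted p = 0.0132), Lef1, its relative, changed by -1.03 ± 0.22, adjusted p = 0.0161, and Twist1, an early mesenchymal factor, by -0.25 ± 0.07, adjusted p = 0.0374. The call of Twist1 was lost under TMM scaling (adjusted p = 0.07).

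Transcripts for folding and modifying procollagen fell more often than they rose. Of 30 tested genes for procollagen folding, processing and crosslinking, 10 were lower and 2 higher (5.59% and 9.17% of all tested genes), with a median log2 fold change of -0.14. P4ha1, the catalytic subunit of prolyl 4-hydroxylase, had an RQ of 2761, 2956, 3059 and 2834 in replicates 1 to 4 at day 14 and 2204, 1985, 2228 and 2069 at day 21 (log2 fold change -0.45 ± 0.06 (SE), adjusted p = 0.00387). The 2 ranges were separate, and the drop was found in all 4 replicate numbers. Its partner subunit P4hb fell by 15.5% (log2 fold change -0.24 ± 0.07 (SE), adjusted p = 0.0408). Fkbp10, a prolyl isomerase of the ER, fell by 23.7% (log2 fold change -0.39 ± 0.05 (SE), adjusted p = 0.00289) and P3h1, the prolyl 3-hydroxylase of the collagen chains, fell by 22.8% (log2 fold change -0.37 ± 0.05 (SE), adjusted p = 0.00332). Serpinh1, the collagen chaperone HSP47, went from 9516 ± 237 to 8052 ± 497 (SD, n = 4; log2 fold change -0.24 ± 0.06 (SE), adjusted p = 0.0289). P3h2, a second prolyl 3-hydroxylase, and Adamts14, a procollagen N-proteinase, had the largest falls of the list, with log2 fold changes of -0.82 and -0.80. The risers were Pcolce2, an enhancer of procollagen C-proteinase (log2 fold change 0.61 ± 0.08 (SE), adjusted p = 0.0037), and Tmem38b, an ER cation channel (log2 fold change 0.41). On a housekeeping scale without Sdha the calls of P4hb and Serpinh1 were lost (adjusted p = 0.104 and 0.0602).

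Minor matrix components moved in both directions. Chad, chondroadherin, a cell-binding leucine-rich protein, rose from an RQ between 18.6 and 31.2 to one between 50.9 and 106 (log2 fold change 1.64 ± 0.26 (SE), adjusted p = 0.00557). Epyc, epiphycan, a proteoglycan of cartilage, fell to 0.417 of its day 14 mean (log2 fold change -1.26 ± 0.14 (SE), adjusted p = 0.00216). Ecm2 was the third called gene of the 11 tested leucine-rich proteoglycans, with a log2 fold change of 0.29, and without replicate 1 the list had 4 higher and 1 lower. Among 11 fibrillar collagen chains only Col27a1 was called, and it was lower (log2 fold change -0.95 ± 0.22 (SE), adjusted p = 0.0222). With the replicate block 5 chains were lower (Col2a1, Col3a1, Col11a1, Col11a2 and Col27a1) and Col5a3 was higher, and without replicate 1 there were 6 lower and 1 higher.

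Of 21 matrix-degrading enzymes and inhibitors, 7 were higher and 2 lower (9.17% and 5.59% of all tested genes), and the list's median log2 fold change was 0.10. Mmp13, the collagenase of OBs and hypertrophic chondrocytes, had an RQ of 4003, 4095, 4161 and 4014 in replicates 1 to 4 at day 14 and 11748, 5372, 6469 and 7779.9 at day 21 (log2 fold change 0.95 ± 0.21 (SE), adjusted p = 0.0187). At day 14 the 4 libraries were nearly equal, and at day 21 they spread more than 2-fold, with replicate 1 the highest and replicate 2 the lowest. Mmp12, the macrophage elastase, changed from 44.04 ± 17.2 to 184 ± 75.3 (SD, n = 4; log2 fold change 2.07 ± 0.37 (SE), adjusted p = 0.00856), and Mmp3, stromelysin, changed by 1.06 ± 0.23, adjusted p = 0.0175. Mmp9, gelatinase B, went the other way (log2 fold change -1.17 ± 0.34 (SE), adjusted p = 0.0477), although replicate 1 at day 21, at 31.8, overlapped the day 14 range of 28.6 to 56.4.

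**Figure D2:**
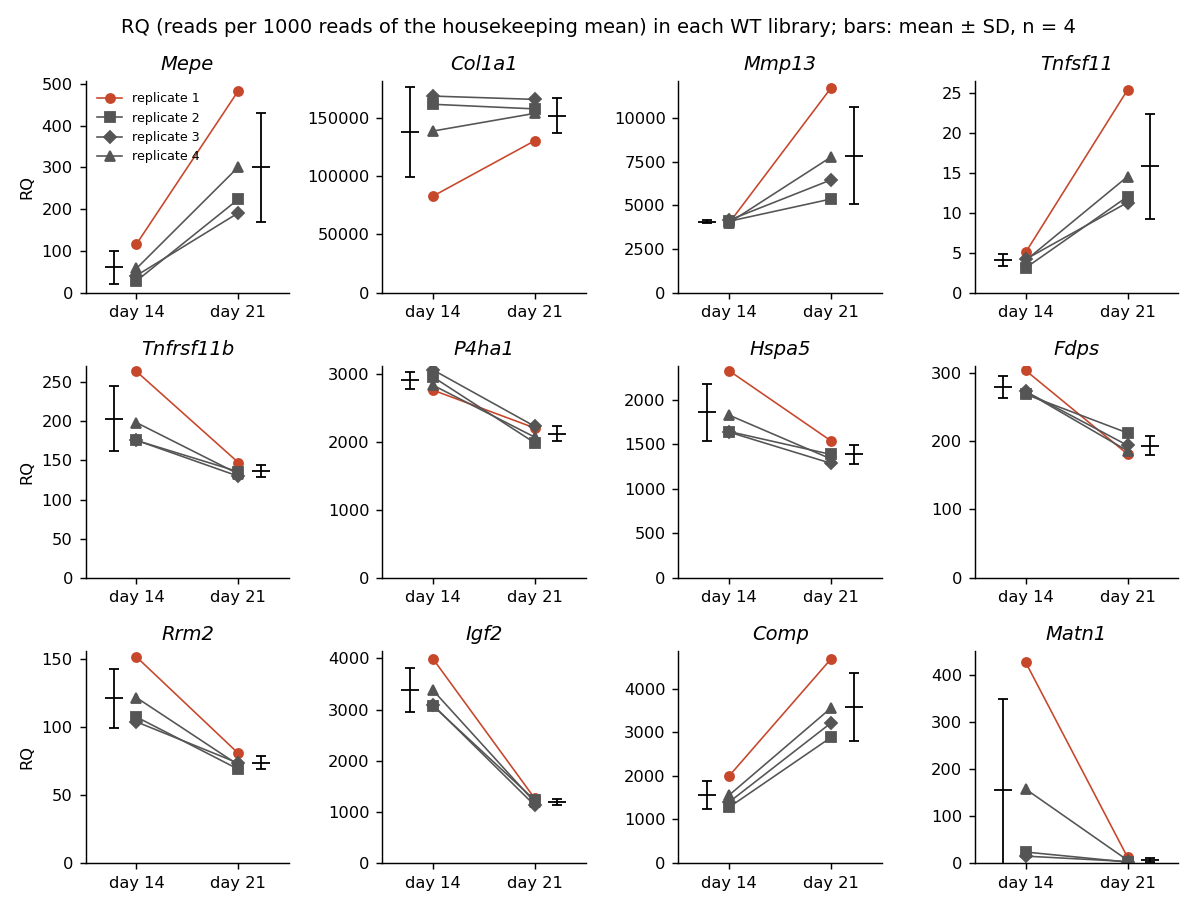
RQ of 12 genes in each WT library at days 14 and 21 (linear axes from zero; lines join libraries of one replicate number, replicate 1 in red; horizontal bars with whiskers are the mean ± SD of 4 libraries, cut off at zero for Matn1). Col1a1 overlaps between the days, whereas the other 11 genes have no overlap, for example Igf2 at 3075 to 3995 against 1124 to 1261.

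Among signals to the osteoclast lineage RANKL rose and its decoy receptor fell. All 6 genes of the RANKL, osteoprotegerin and CSF1 list were called, 5 higher and 1 lower, and the same counts were found with TMM scaling, with the block and without replicate 1. Tnfsf11, which encodes RANKL, the factor that drives osteoclast formation, had an RQ of 5.02, 3.09, 4.17 and 4.02 in replicates 1 to 4 at day 14 and 25.3, 12.004, 11.3 and 14.5 at day 21 (log2 fold change 1.95 ± 0.28 (SE), adjusted p = 0.00404). This is a rise of 3.87 times the day 14 mean, from a level close to that of day 8 (mean RQ 3.84). Tnfrsf11b, the decoy receptor osteoprotegerin, stood at 264, 175, 176 and 198 in replicates 1 to 4 at day 14 and 147, 136, 129.8 and 133 at day 21 (log2 fold change -0.57 ± 0.13 (SE), adjusted p = 0.0186), lower in each replicate number. Csf1, the macrophage growth factor, rose by 20.5% (log2 fold change 0.27 ± 0.06 (SE), adjusted p = 0.0196), and Il34, its alternative ligand, changed by 0.55 on the log2 scale.

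The receptors of these ligands rose too. Csf1r had an RQ of 302, 141, 109 and 193 in replicates 1 to 4 at day 14 and 348, 442, 488 and 405 at day 21 (log2 fold change 1.18 ± 0.28 (SE), adjusted p = 0.0245), and Tnfrsf11a, the receptor RANK, changed from 7.26 ± 2.93 to 16.8 ± 2.51 (SD, n = 4; log2 fold change 1.23 ± 0.26 (SE), adjusted p = 0.017). Both rose far less in replicate 1 than in the other replicate numbers, and Csf1r had a log2 ratio of 0.20 in replicate 1 and 1.59 in replicates 2 to 4. Csf1r is itself in the list of macrophage markers given below, so its rise is not separate from theirs. Other macrophage markers moved with both receptors, and the part of cell number in this result was not tested.

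Of 12 tested osteoclast markers 4 were higher and 1, Mmp9, was lower (7 higher and 1 lower without replicate 1). The risers include Tnfrsf11a of the RANKL list, and Mmp9 was also counted among the matrix-degrading enzymes. These calls are therefore not separate from those above. Atp6v0d2, a proton pump subunit needed for osteoclast fusion, had an RQ of 6.03, 3.01, 2.89 and 3.59 in replicates 1 to 4 at day 14 and 26.4, 15.6, 20.8 and 20.7 at day 21 (log2 fold change 2.46 ± 0.25 (SE), adjusted p = 0.00188). Dcstamp, a fusion protein of osteoclast precursors, went from 0.341 ± 0.134 to 1.85 ± 0.6401 (SD, n = 4; log2 fold change 2.35 ± 0.35 (SE), adjusted p = 0.00476), a low level at both days, and Ocstamp, a related protein, changed by 0.85 on the log2 scale. For Ocstamp the block removed the call (adjusted p = 0.0506). Acp5 and Ctsk, a phosphatase and a collagen-cleaving protease of resorbing osteoclasts, were not called (log2 fold changes 0.21 and 0.19). The days did not overlap for Ctsk, and the block called it higher (adjusted p = 0.0388). Calcr, Siglec15 and Car2, which mark mature osteoclasts, did not pass the count filter and had at most 1, 6 and 15 reads in any library.

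Macrophage markers rose nearly without exception. Of the 25 markers 22 were higher and none lower, against 9.17% of all tested genes, and the median log2 fold change was 1.35. The summed RQ of the list was 6205, 2310, 1938 and 3335 in replicates 1 to 4 at day 14 and 8802, 8879, 10320 and 8605 at day 21, from 300.2 to 581 at day 8. At day 14 replicate 1 was well above the others, and at day 21 replicate 3 was the highest and the other cultures were close together. The median rise of the markers was accordingly 0.54 in replicate 1 and 1.70 in replicates 2 to 4, and without replicate 1 all 25 were called. In bulk RNASeq, more cells of a type and more RNA per cell cannot be told apart.

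Adgre1, the macrophage surface protein F4/80, had an RQ of 210.4, 76.9, 70.4 and 119 in replicates 1 to 4 at day 14 and 349, 337, 394 and 331 at day 21 (log2 fold change 1.58 ± 0.31 (SE), adjusted p = 0.0134). For Cd68, a lysosomal membrane protein, RQ changed from 99.7 ± 53.1 to 232 ± 18.9 (SD, n = 4; log2 fold change 1.23 ± 0.30 (SE), adjusted p = 0.0278), and for Lyz2, lysozyme of macrophages and granulocytes, from 1538 ± 917 to 4041 ± 330.2 (log2 fold change 1.39 ± 0.34 (SE), adjusted p = 0.0278). F13a1, a transglutaminase subunit of resident macrophages, stood at 75.5, 21.9, 23.1 and 42.98 in replicates 1 to 4 at day 14 and 274, 197, 200.5 and 222 at day 21 (log2 fold change 2.48 ± 0.37 (SE), adjusted p = 0.00476). Lyz1 had the largest log2 fold change of the list and the least even values, 43.3, 22.3, 11.1 and 19.4 at day 14 and 71.2, 70.2, 537 and 186 at day 21 (log2 fold change 3.22 ± 0.73 (SE), adjusted p = 0.0209). Replicate 3 at day 21 carried much of it, and without replicate 3 of both days the log2 fold change was 1.99 with an adjusted p of 0.0746. Lyz1 and Lyz2 are close paralogs, so reads shared between them could be split by the counting.

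**Figure D3:**
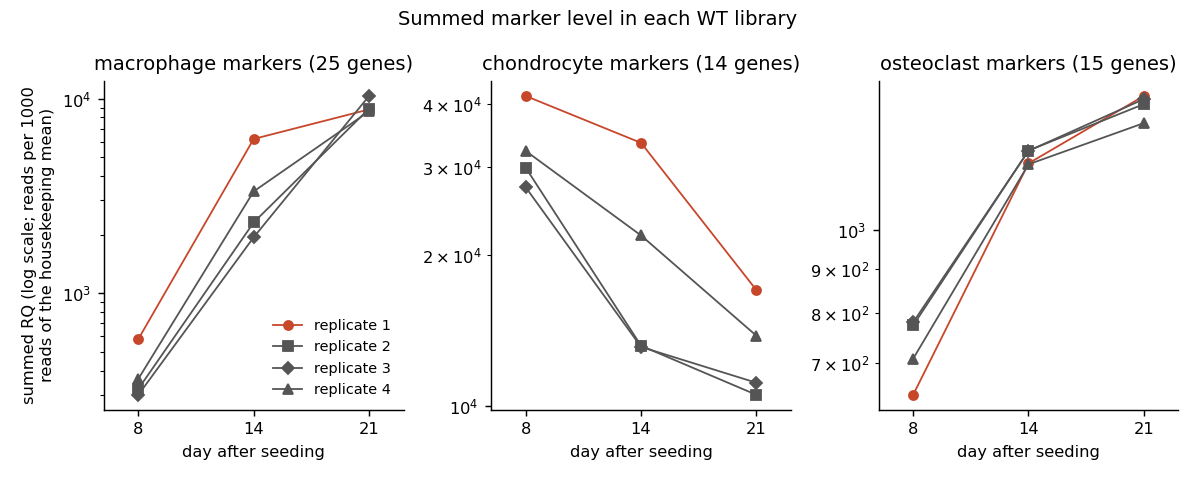
Summed RQ of macrophage, chondrocyte and osteoclast markers in each WT library at days 8, 14 and 21 (log axes; lines join libraries of one replicate number, replicate 1 in red). Macrophage markers climb from 300.2 to 581 at day 8 to between 8605 and 10320 at day 21, and the chondrocyte sum falls to between 10510 and 17010. The osteoclast sum climbs from day 8 to day 14 and a little further to between 1334 and 1435. Most of the osteoclast sum is Ctsk, which was not called, with a mean RQ of 422, 839 and 957 at days 8, 14 and 21.

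Other immune lists rose beside the macrophage markers, though the complement list shares C1q chains with them. Of 18 tested complement genes, 9 were higher and none lower (11 higher and 1 lower with the block). The C1q chains, which start the classical pathway and are made by macrophages, were among them, with C1qa at an RQ of 244, 93.5, 75.5 and 137 in replicates 1 to 4 at day 14 and 349.6, 315, 336 and 321 at day 21 (log2 fold change 1.27 ± 0.32 (SE), adjusted p = 0.0287), and so was Cfp, properdin (1.28 ± 0.23, adjusted p = 0.00952). Serping1, a complement inhibitor that connective tissue cells also make, had a log2 fold change of 0.96 and rose more in replicate 1 than in the others (log2 ratio of 1.23 in replicate 1 and 0.83 in replicates 2 to 4), unlike the C1q chains. Of 19 tested chemokines and cytokines 7 were higher and none lower (12 with the block, 13 without replicate 1). Ccl9, a macrophage chemokine, rose by 1.55 ± 0.22, adjusted p = 0.00404, and Cxcl2, a neutrophil attractant, by 2.28 ± 0.27, adjusted p = 0.00265, though from a mean RQ of only 0.267. Il1b and Il6 had at most 5 and 4 reads in any library. The summed macrophage markers were also higher at day 21 within each replicate number, and their part in the rises of these lists was not tested.

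Interferon-stimulated genes, the antiviral genes switched on by type I interferon, gave fewer calls. Of 24 tested, 5 were higher and none was lower, whereas the block called 16 higher (13.2% of all tested genes) and the libraries without replicate 1 called 19 (18.3%). Ifi27l2a rose from 7.96 ± 2.98 to 18.1 ± 3.35 (SD, n = 4; log2 fold change 1.197 ± 0.25 (SE), adjusted p = 0.015), Bst2, tetherin, by 0.69 ± 0.14, adjusted p = 0.0137, and Oas1a, an RNA sensor, by 1.08 ± 0.31, adjusted p = 0.0476. Ifit3b and Ifih1, which were the other called members, had log2 fold changes of 0.60 and 0.63. Isg15, a ubiquitin-like modifier, shows where the fits part: its RQ was 19.3, 6.64, 7.94 and 9.38 at day 14 and 19.8, 13.96, 13.2 and 13.6 at day 21, nearly equal in replicate 1 and higher at day 21 in the other replicate numbers (log2 fold change 0.50 ± 0.32 (SE), adjusted p = 0.337; with the replicate block, adjusted p = 0.0409). The list's median log2 fold change was 0.60 in WT and -0.023 in Het, but the difference between the genotypes was called for 0 of its members. The part of the macrophage markers, which also rose least in replicate 1, was not tested.

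The promoters of these genes were searched for the interferon-stimulated response element, taken as 2 copies of GAAA with any 2 bases between them, on either strand. It was found in the 250 bases before the start of 11 of the 18 list members with a promoter in the RefSeq table (GRCm38.p6). Of the 4 called members with a promoter, 3 held it. Counted in the same way, by gene with any of its promoters, it was found for 3.46% of all 27025 genes. The promoters of Ifit3b and Bst2, both called, are shown 5′ to 3′ on the gene's strand, with the element or its reverse complement in capitals and overlapping matches run together.
Ifit3b (chr19:34607707-34607956, plus strand): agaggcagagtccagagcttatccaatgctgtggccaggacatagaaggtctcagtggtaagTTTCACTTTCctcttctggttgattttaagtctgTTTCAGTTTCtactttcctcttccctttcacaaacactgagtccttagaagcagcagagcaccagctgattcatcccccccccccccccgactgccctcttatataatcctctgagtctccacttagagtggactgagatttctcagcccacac
Bst2 (chr8:71537473-71537722, minus strand): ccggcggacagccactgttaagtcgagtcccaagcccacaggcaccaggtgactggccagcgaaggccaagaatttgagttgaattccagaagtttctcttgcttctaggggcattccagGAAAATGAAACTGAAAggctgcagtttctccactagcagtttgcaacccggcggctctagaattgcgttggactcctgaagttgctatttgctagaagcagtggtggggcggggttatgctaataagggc
Ifit3b holds 2 matches on the opposite strand, 188 to 179 and 154 to 145 bases before the start, and Bst2 holds 2 overlapping ones between 130 and 115. For the 19 macrophage markers with a promoter, the letters GAGGAAGT, a form of the site of the myeloid factor PU.1, were found before 1 (2.79% of all genes with a promoter), the shorter AGGAAGT before 8 (8.8%) and GAGGAA before 12 (25.9%). These are matches of letters and not measured sites.

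Chondrocyte markers fell together. Of 14 tested, 9 were lower and 1 was higher, with a median log2 fold change of -1.57 (11 lower and 1 higher without replicate 1). The summed RQ was 33480, 13170, 13100 and 21870 in replicates 1 to 4 at day 14 and 17010, 10510, 11110 and 13790 at day 21. The sum was lower at day 21 within each replicate number, but replicate 1 at day 21 lay above replicates 2 and 3 at day 14. A large part of the sum and of its fall was Col2a1, which was not called (mean RQ 9517 at day 14 and 4231 at day 21). The order of the replicates stayed nearly the same, with replicate 1 the highest at both days. Matn1, matrilin of cartilage, had an RQ of 427, 23.1, 14.4 and 157 in replicates 1 to 4 at day 14 and 12.1, 1.84, 2.96 and 5.75 at day 21, the largest fall among the called genes with at least 50 reads on average (log2 fold change -4.91 ± 1.18 (SE), adjusted p = 0.0259). Replicate 1 was the highest at both days, and every day 14 value lay above every day 21 value. Ucma, a cartilage Gla protein, fell from 15.7 ± 15.1 to 1.35 ± 0.563 (SD, n = 4; log2 fold change -3.50 ± 0.72 (SE), adjusted p = 0.015), and Acan, aggrecan, went from 1122 ± 491 to 520 ± 39.6 (log2 fold change -1.11 ± 0.26 (SE), adjusted p = 0.0248). The collagen IX chain Col9a2 changed by -1.92 ± 0.40, adjusted p = 0.0153 and Cnmd, chondromodulin, by -1.94 ± 0.47, adjusted p = 0.026. Cnmd fell less without replicate 1 (log2 fold change -1.27, adjusted p = 0.00429). Cytl1 and Clec3a, a cytokine-like protein and a lectin of cartilage, fell as well (-2.73 ± 0.71, adjusted p = 0.0338 and -2.71 ± 0.68, adjusted p = 0.0305). Both were among the 12 largest falls of called genes with at least 50 mean counts and no overlap between the days.

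Col2a1, the main collagen of cartilage, was not called (log2 fold change -1.17 ± 0.46 (SE), adjusted p = 0.126), and replicate 1 at day 21, at 6806, lay above replicates 2 and 3 at day 14. Within each replicate number it fell, and the block called it (adjusted p = 0.00205). Comp, cartilage oligomeric matrix protein, which tendon, ligament and bone cells also make, ran against the list: its RQ was 2001, 1282, 1400.4 and 1561 in replicates 1 to 4 at day 14 and 4693, 2887, 3220 and 3564 at day 21 (log2 fold change 1.202 ± 0.18 (SE), adjusted p = 0.00464), higher at day 21 within each replicate number. Col10a1 and Sox9, the collagen of hypertrophic cartilage and the master regulator of chondrocytes, were not called.

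Transcripts of dividing cells fell. Of 25 cell cycle and DNA replication genes 18 were lower and none higher, with a median log2 fold change of -0.47 (23 lower without replicate 1). Rrm2, a subunit of ribonucleotide reductase, had an RQ of 151, 107, 104 and 121 in replicates 1 to 4 at day 14 and 80.4, 68.8, 73.2 and 71.9 at day 21 (log2 fold change -0.71 ± 0.12 (SE), adjusted p = 0.00645). Plk1, a mitotic kinase, changed from 76.4 ± 17.6 to 45.6 ± 4.42 (SD, n = 4; log2 fold change -0.74 ± 0.15 (SE), adjusted p = 0.013), Aurkb, another, from 44.9 ± 5.65 to 28.3 ± 0.7899 (log2 fold change -0.66 ± 0.09 (SE), adjusted p = 0.00332), and Mki67, which encodes the proliferation antigen Ki-67, from 341 ± 28.4 to 258 ± 9.73 (log2 fold change -0.40 ± 0.07 (SE), adjusted p = 0.00693). For all 4 genes the day 8 mean was higher still, for example 238 for Rrm2. The falls were partial, since the mean of Plk1 fell by 40.3% and that of Mki67 fell by 24.4%, so these transcripts were still found at day 21.

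Imprinted genes are transcribed from one parental copy, and many of them act on fetal growth. Of 24 genes of the IGF axis and this class, 11 were lower and 2 higher (13 lower and 6 higher without replicate 1), with a median log2 fold change of -0.38. Igf2, the fetal insulin-like growth factor (chr7:142650766-142666816, minus strand in GENCODE vM21, GRCm38), had an RQ of 3995, 3075, 3091 and 3379.8 in replicates 1 to 4 at day 14 and 1261, 1228, 1124 and 1187 at day 21 (log2 fold change -1.50 ± 0.09 (SE), adjusted p = 0.000433). The neighboring noncoding RNA H19 (chr7:142575529-142578143, minus strand) went from 8104 ± 1106 to 3134 ± 773 (SD, n = 4; log2 fold change -1.37 ± 0.17 (SE), adjusted p = 0.00284), and Igf2os, which is transcribed against Igf2, from 19.96 ± 2.65 to 4.61 ± 0.255 (log2 fold change -2.11 ± 0.12 (SE), adjusted p = 0.000417). The exons of Igf2os overlap those of Igf2 over 98 bases and those of the readthrough gene Gm49394 over 1142, and the counting rule for strand is not given in the sources used here, so their reads may not be fully separate. The 2 risers were Igf1, the postnatal growth factor (log2 fold change 0.34 ± 0.08 (SE), adjusted p = 0.0261), and Igfbp7, a secreted binding protein (log2 fold change 0.86 ± 0.10 (SE), adjusted p = 0.00265).

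Cholesterol synthesis fell with small but even changes. Of 21 genes 12 were lower and none higher, with a median log2 fold change of -0.28 (15 lower without replicate 1, 17 with TMM scaling). Fdps, farnesyl diphosphate synthase, had an RQ of 303, 268, 272 and 272 in replicates 1 to 4 at day 14 and 181, 212, 194 and 186 at day 21 (log2 fold change -0.53 ± 0.07 (SE), adjusted p = 0.00288). Every day 21 value lay below every day 14 value. Cyp51, the lanosterol demethylase, went from 292 ± 17.6 to 220 ± 3.52 (SD, n = 4; log2 fold change -0.41 ± 0.05 (SE), adjusted p = 0.00359), Mvd, which makes isopentenyl diphosphate, from 61.4 ± 2.81 to 45.9 ± 3.102 (log2 fold change -0.42 ± 0.06 (SE), adjusted p = 0.00423), and Hmgcs1, a synthase early in the pathway, from 519 ± 13.7 to 429 ± 11.3 (log2 fold change -0.28 ± 0.05 (SE), adjusted p = 0.00748). The days did not overlap for 16 of the 21 genes, all lower at day 21, against 9.65% of all tested genes. Scd2, the stearoyl-CoA desaturase of another branch of lipid synthesis, was among the most highly counted falling genes (log2 fold change -0.48 ± 0.07 (SE), adjusted p = 0.00474).

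Promoters were read for the cholesterol and the cell cycle genes, where no member was called higher, and not for the other lists without such a call. The CCAAT box, on either strand, was found in the 250 bases before the start of all 13 cholesterol genes with a promoter in the table and of 16 of 19 cell cycle genes, and for 37.5% of all genes with a promoter. Among called genes with a promoter, the box was found before 7 of 7 cholesterol genes and 13 of 15 cell cycle genes. The sterol regulatory element in the form CACCCCAC was found before 1 of the 13 (Hmgcs1), against 2.98% of all genes with a promoter. TTTGAA, the core of the cell cycle homology region, was found before 5 of the 19 cell cycle genes (18.3% of all genes with a promoter) and the longer TTTGAAA before 3 (6.69%). In the promoters below, capitals mark CCAAT or its reverse complement ATTGG, CACCCCAC in Hmgcs1, and TTTGAA in Cdk1, a mitotic kinase gene of the falling set.
Mvd (chr8:122443423-122443672, minus strand): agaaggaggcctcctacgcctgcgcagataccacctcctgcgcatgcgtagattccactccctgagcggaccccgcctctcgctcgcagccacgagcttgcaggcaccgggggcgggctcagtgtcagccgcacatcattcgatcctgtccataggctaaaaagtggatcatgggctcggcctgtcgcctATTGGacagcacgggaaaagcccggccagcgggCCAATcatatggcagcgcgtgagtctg
Cyp51 (chr5:4104698-4104947, minus strand): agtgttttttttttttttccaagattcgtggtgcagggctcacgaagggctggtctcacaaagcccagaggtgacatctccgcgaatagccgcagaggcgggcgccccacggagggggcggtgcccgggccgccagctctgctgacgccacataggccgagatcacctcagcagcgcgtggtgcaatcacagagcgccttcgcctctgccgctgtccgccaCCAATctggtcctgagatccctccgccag
Hmgcs1 (chr13:119690101-119690350, plus strand): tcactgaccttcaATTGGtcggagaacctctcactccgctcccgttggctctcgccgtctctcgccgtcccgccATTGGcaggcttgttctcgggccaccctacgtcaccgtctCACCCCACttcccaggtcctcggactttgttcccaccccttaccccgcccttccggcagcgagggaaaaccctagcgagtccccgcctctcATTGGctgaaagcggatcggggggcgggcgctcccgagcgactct
Cdk1 (chr10:69352913-69353162, minus strand): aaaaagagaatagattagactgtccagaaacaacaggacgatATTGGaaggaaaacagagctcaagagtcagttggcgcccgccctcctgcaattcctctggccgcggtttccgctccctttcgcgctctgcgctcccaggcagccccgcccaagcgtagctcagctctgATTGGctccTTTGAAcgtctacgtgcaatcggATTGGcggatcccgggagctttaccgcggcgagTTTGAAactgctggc
Mvd has a CCAAT box on each strand within 60 bases of the start, Cyp51 has one 29 to 25 bases before it, and Hmgcs1 has 3, of which the nearest lies 45 to 41 bases before the start. Cdk1 holds 3 as well and 2 copies of TTTGAA, the nearer 15 to 10 bases before the start.

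Cell stress pathways, which the study was about, gave calls mostly toward lower levels. Of 25 ER unfolded protein response (ER-UPR) genes 8 were lower and 1 higher, with a median log2 fold change of -0.23 (11 lower and 3 higher without replicate 1, 13 lower and 1 higher with TMM scaling). Hspa5, the ER chaperone BIP, had an RQ of 2329, 1646, 1639 and 1829.8 in replicates 1 to 4 at day 14 and 1540, 1388, 1288 and 1337 at day 21 (log2 fold change -0.42 ± 0.12 (SE), adjusted p = 0.0444). Calr, calreticulin, fell by 28.2% (log2 fold change -0.48 ± 0.09 (SE), adjusted p = 0.0133), Pdia4, a disulfide isomerase, fell by 30.9% (log2 fold change -0.53 ± 0.11 (SE), adjusted p = 0.0148), and Hyou1, an ER chaperone of the HSP70 class, fell by 30.6% (log2 fold change -0.52 ± 0.08 (SE), adjusted p = 0.00557). The single riser was Crebrf, a regulator of this response (log2 fold change 0.42). The call of Hspa5 was lost on housekeeping scales without Actg1 or without Sdha (adjusted p = 0.0597 and 0.0905).

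Of 30 tested targets of the integrated stress response (ISR), 2 were higher and 4 lower, where 9.17% and 5.59% of all tested genes were (4 and 7 with the block, 6 and 7 without replicate 1). Atf3, a stress-induced transcription factor, had an RQ of 14.6, 13.6, 11.5 and 12.97 in replicates 1 to 4 at day 14 and 29.4, 22.99, 28.6 and 27.6 at day 21 (log2 fold change 1.05 ± 0.11 (SE), adjusted p = 0.00175), and Nupr1, a stress-induced chromatin protein, rose from 513 ± 22.8 to 810.4 ± 79.6 (SD, n = 4; log2 fold change 0.66 ± 0.08 (SE), adjusted p = 0.00236). The fallers were the serine and glycine synthesis genes Psat1, Phgdh, Psph and Shmt2, of which Psat1 changed from 224 ± 6.94 to 131 ± 13.7 (log2 fold change -0.77 ± 0.07 (SE), adjusted p = 0.00151) and Phgdh from 121 ± 3.76 to 80.03 ± 15.9 (log2 fold change -0.59 ± 0.12 (SE), adjusted p = 0.0159). Of 15 mitochondrial chaperones and proteases 3 were lower (5 lower and 1 higher without replicate 1). Hspd1 (mitochondrial HSP60) fell by 25.4% (log2 fold change -0.42 ± 0.07 (SE), adjusted p = 0.00638), its cofactor Hspe1 fell by 0.30 on the log2 scale, and Hspa9 (mt-HSP70) fell by 14.4% (log2 fold change -0.22 ± 0.06 (SE), adjusted p = 0.0298). None of the 13 mitochondrially encoded genes was called (1 higher and 1 lower with the block, 3 higher and 2 lower without replicate 1). Glycolysis had 1 call among 19 (Hk2, lower, log2 fold change -0.31), which the block removed (adjusted p = 0.0589). Without replicate 1 glycolysis had 3 calls, all lower.

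The 27 genes that the study used as markers of its pathways in culture gave 2 higher (Nupr1 and Lrp5) and 6 lower (Hspa9, Hspa5, Shmt2, Hspd1, Hspe1 and Rcc2), against 9.17% and 5.59% of all tested genes. With the block 4 were higher and 9 lower, with TMM scaling 1 and 8, and without replicate 1 there were 6 and 9.

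Of 28 Wnt ligands, receptors and antagonists 5 were higher and 4 lower, against 9.17% and 5.59% of all tested genes (11 and 4 without replicate 1, against 18.3% and 10.4%). Fzd9, a receptor, fell to 0.414 of its day 14 mean (log2 fold change -1.26 ± 0.24 (SE), adjusted p = 0.011), and Axin2, a target and feedback inhibitor of the pathway, went from 19.3 ± 2.39 to 11.1 ± 1.97 (SD, n = 4; log2 fold change -0.79 ± 0.14 (SE), adjusted p = 0.00967). Lrp4, a co-receptor that presents sclerostin, rose from 274 ± 36.9 to 450.3 ± 50.2 (log2 fold change 0.71 ± 0.11 (SE), adjusted p = 0.00573), and Lrp5, a Wnt co-receptor that sets bone mass, from 199.8 ± 44.9 to 287 ± 17.8 (log2 fold change 0.52 ± 0.15 (SE), adjusted p = 0.0471). The call of Lrp5 was lost under TMM scaling (adjusted p = 0.0974). In the BMP and TGF-beta pathways 5 of 29 rose and none fell (3 higher with TMM scaling). With the block 7 were higher and 1 lower, and without replicate 1 these counts were 11 and 1. The risers held the receptor Tgfbr1 (log2 fold change 0.44 ± 0.06 (SE), adjusted p = 0.00404) and the ligands Bmp8a (0.72 ± 0.16, adjusted p = 0.0179) and Tgfb1 (0.38). The BMP antagonist Nog (0.84 ± 0.23, adjusted p = 0.0385) and the inhibitory Smad6 (0.38) rose as well. Among 17 hormone and vitamin receptors 5 rose and 1 fell, against 9.17% and 5.59% of all tested genes (8 and 2 without replicate 1). Vdr, the vitamin D receptor, had an RQ of 127, 179.6, 189.8 and 159 in replicates 1 to 4 at day 14 and 247, 233, 258 and 245 at day 21 (log2 fold change 0.58 ± 0.11 (SE), adjusted p = 0.0125), and Esr1, the estrogen receptor, rose from 5.02 ± 1.74 to 9.52 ± 0.885 (log2 fold change 0.90 ± 0.23 (SE), adjusted p = 0.0343).

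**Figure D4:**
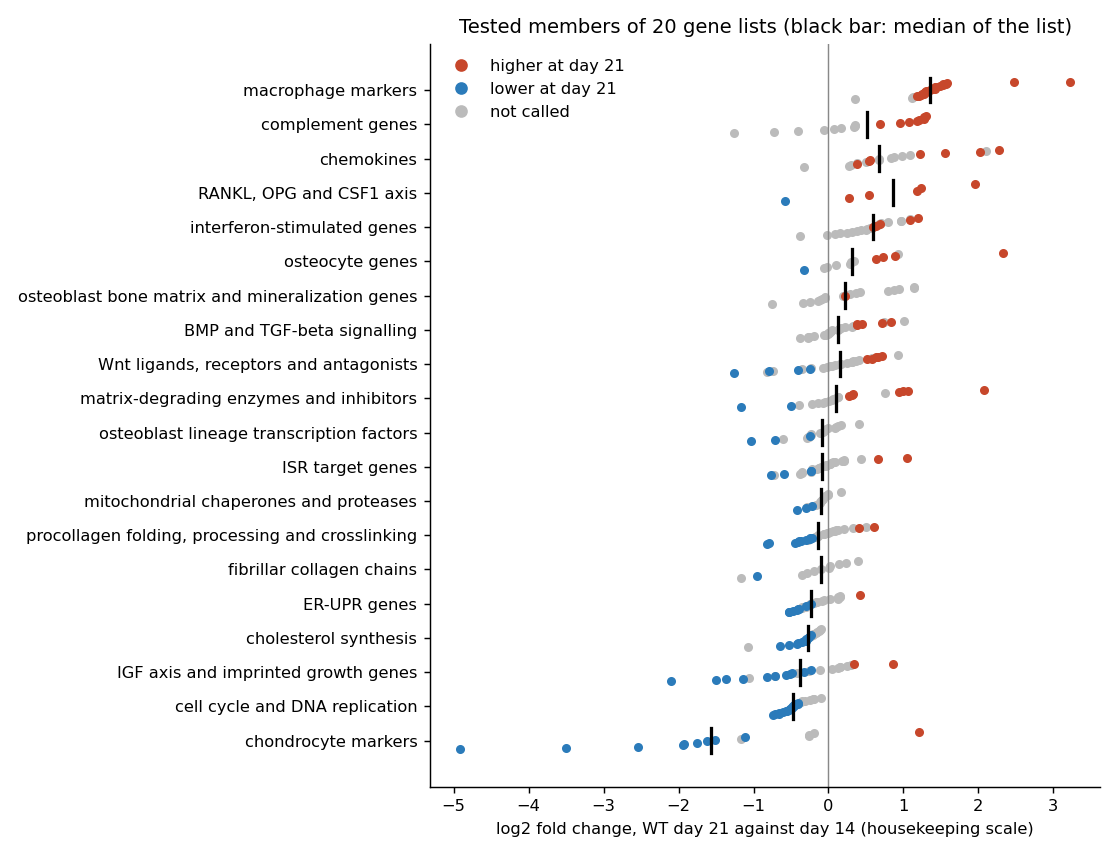
Log2 fold change of each tested member of 20 gene lists, WT day 21 against day 14 on the housekeeping scale (red, called higher; blue, called lower; gray, not called; black bar, median of the list). Macrophage markers (median 1.35) and chondrocyte markers (median -1.57) lie at opposite ends, and cell cycle (-0.47) and cholesterol genes (-0.28) lie wholly below zero.

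The 12 largest rises and falls were taken from called genes with at least 50 mean counts and no overlap between the days. The rises held genes outside the lists as well. Itgax, an integrin of dendritic cells and macrophages, changed from 5.697 ± 2.24 to 25.7 ± 3.79 (SD, n = 4; log2 fold change 2.19 ± 0.30 (SE), adjusted p = 0.00372), Csf3r, the receptor for granulocyte colony stimulating factor, by 2.17 ± 0.45, adjusted p = 0.0154, Cd4, which mouse T cells and some macrophages carry, by 2.15 ± 0.40, adjusted p = 0.0106, and Fcgr2b, an inhibitory antibody receptor, by 2.08 ± 0.43, adjusted p = 0.0157. Gm30489, a noncoding RNA whose exons overlap those of F13a1 on the opposite strand over 74 bases, rose beside it (log2 fold change 2.44). Others were Plppr5, a membrane protein of the lipid phosphatase-related class (log2 fold change 2.13 ± 0.27 (SE), adjusted p = 0.00312), and Slc13a3, a dicarboxylate transporter (log2 fold change 2.09 ± 0.30 (SE), adjusted p = 0.00427). The 12 largest falls were led by Matn1 and Ucma and also held Igf2os, Cryba2, a crystallin (log2 fold change -2.83 ± 0.40 (SE), adjusted p = 0.00404), and Slc27a6, a fatty acid transporter (log2 fold change -1.87 ± 0.53 (SE), adjusted p = 0.046).

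Among the called genes with the most reads, the ferritin subunits rose, Fth1 from 2286 ± 572 to 3809 ± 281 (SD, n = 4; log2 fold change 0.74 ± 0.15 (SE), adjusted p = 0.0158) and Ftl1 from 4098 ± 581 to 5534 ± 169 (log2 fold change 0.43 ± 0.10 (SE), adjusted p = 0.0187). Ctsb, a lysosomal protease, changed from 1740.4 ± 419.7 to 2780.2 ± 195 (log2 fold change 0.68 ± 0.15 (SE), adjusted p = 0.0195). Sdc3, a heparan sulfate proteoglycan of the cell surface, rose by 35.8% (log2 fold change 0.44 ± 0.08 (SE), adjusted p = 0.0116). Fth1 and Ctsb rose more in replicates 2 to 4 than in replicate 1, as the macrophage markers did (log2 ratio of 0.20 in replicate 1 and 0.95 in replicates 2 to 4 for Fth1), whereas Sdc3 rose more in replicate 1 (log2 ratio of 0.78 in replicate 1 and 0.33 in replicates 2 to 4). The part of the macrophage markers in the rises of Fth1 and Ctsb was not tested.

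Markers of other cell types were read in the same way. None of 10 neutrophil genes passed the count filter, and their summed RQ stayed below 1 in all 8 libraries. Only 2 of 10 T, B and mast cell markers were tested and neither was called (1 was lower without replicate 1). Of 7 tested adipocyte genes 4 were higher (Cd36, Lpl, Cebpa and Plin4), but the defining Adipoq and Plin1 had at most 6 and 4 reads in any library. Fabp4, a leading marker of the list, was lower at day 21 within each replicate number but was not called (log2 fold change -0.39 ± 0.40 (SE), adjusted p = 0.581). The summed RQ of the whole list of 12 was 481.6, 370.2, 403 and 431.6 in replicates 1 to 4 at day 14. At day 21 it was 792, 687.9, 756.1 and 731.8, without overlap. A large part of this rise lay in Lpl (mean RQ 149 at day 14 and 279 at day 21) and Cd36 (59.8 and 163). Cd36, a scavenger receptor that macrophages also carry, had a log2 ratio of 0.70 in replicate 1 and 1.83 in replicates 2 to 4, and Lpl, lipoprotein lipase, a log2 ratio of 0.50 in replicate 1 and 1.02 in replicates 2 to 4. Smooth muscle and myofibroblast markers had 3 higher (Lmod1, Myl9 and Synpo2) and 1 lower (Cspg4) of 14, with 7 higher under the block, and 7 higher and 2 lower without replicate 1. Of the 6 tested endothelial markers Vwf and Kdr were higher and Egfl7 lower, at a summed RQ of 27.1 to 37.3. The block removed the call of Kdr (adjusted p = 0.0501) and gave 1 higher and 2 lower, and Cdh5, the endothelial cadherin, had at most 6 reads. In skeletal muscle none of 7 was called (1 higher and 1 lower without replicate 1), and in nerve and glia Mbp was higher and Tubb3 lower of 7 (1 and 2 without replicate 1). Fibroblast and suture cell markers had 1 higher (Cd34) and 4 lower (Dpt, Axin2, Prrx1 and Six2) of 12 (4 and 4 without replicate 1).

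The Het libraries cover the same week and share no sample with the WT ones. With the same test 69 of 18437 genes were called in Het (0.374%), 57 higher (0.309%) and 12 lower (0.0651%). Of the 2725 WT-called genes that were tested in Het, 2668 (97.9%) had the same sign there, against 70.5% of the genes not called in WT. The 63 genes called with the same sign in both make up 2.29% of the WT calls and 91.3% of the Het calls, and none was called with opposite signs. Across 18152 genes, which are not independent of each other, Pearson's r between the log2 fold changes was 0.741. A difference between the genotypes in the change was called for 0 of 19839 genes by edgeR (0%; 473 with an unadjusted p under 0.05), and DESeq2 called 1, the short gene Gm28006, which lies within an exon of Neat1 and rose more in Het (difference 0.47 ± 0.10 on the log2 scale, adjusted p = 0.0409 by DESeq2).

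The Het values of the 3 largest WT rises and the 3 largest WT falls named above were as follows. Lyz1 changed by 2.13 ± 0.28 (SE) on the log2 scale in Het and by 3.22 in WT, F13a1 by 1.70 ± 0.31 and 2.48, and Atp6v0d2 by 1.72 ± 0.38 and 2.46. Matn1 changed by -3.86 ± 1.90 in Het against -4.91 in WT, Ucma by -1.69 ± 1.27 against -3.50, and Cryba2 by -2.71 ± 0.80 against -2.83. The pseudogene Itih5l-ps, which was not named above, fell more than Cryba2 in WT, and changed by -1.78 ± 1.48 in Het against -3.01. Of all these genes only Lyz1 was called in Het (edgeR adjusted p = 0.0244).

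**Figure D5:**
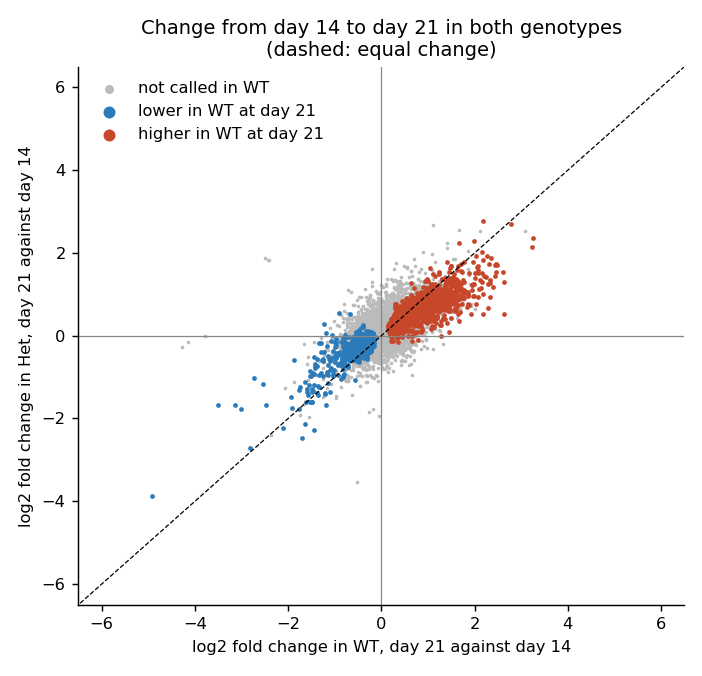
Log2 fold change from day 14 to day 21 in WT (horizontal) and Het (vertical) for 18152 genes tested in both; red and blue are genes called higher and lower in WT, gray is not called, and the dashed line marks equal change. Nearly all called genes (97.9%) lie in the quadrants of equal sign.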

How the data were processed

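Polyadenylated RNA of 24 cultures was sequenced, and the authors deposited raw read counts per gene, which were used unchanged; the submitters' processing notes name cutadapt 2.5, STAR 2.73a, Subread, featureCounts 1.6.4 and mm10, and how strand and multiply mapped reads were counted is not given in the sources used here. WT day 21 was compared with WT day 14 (4 libraries each) in edgeR 4.0.16 (R 4.3.3): filterByExpr, library size set by the geometric mean of the study's 4 housekeeping genes, quasi-likelihood test and Benjamini-Hochberg adjustment over all 18633 tested genes. Fold changes are on the log2 scale with a fitted SE. Totals of 24234653 to 59734231 reads limit precision for genes with few reads. No 2 libraries of one day were copies of each other (chi-square over degrees of freedom at least 5.14, between replicates 2 and 3), which does not show that they came from separate preparations. A fit with the replicate number as a block is given beside some of the results it changes. Other list counts also differ under it, for example those of cell cycle genes (22 lower) and ER-UPR genes (1 higher and 11 lower). It was run since the deviations of same-numbered libraries from their day's mean correlated at 0.644, 0.348, 0.271 and 0.385. Differently numbered libraries among replicates 2 to 4 correlated at 0.136 to 0.412 and, without replicate 1, same-numbered ones at -0.026, -0.036 and 0.172, so the numbers are not shown to pair replicates 2 to 4. Het libraries were fitted the same way, and the difference as an interaction over 16 libraries.

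The members and gene lists were chosen with earlier results of these data known. Named genes were the 12 largest rises and falls among called genes with at least 50 mean counts and no overlap, up to 4 called and the first 3 members of each list, the 8 called genes of each direction with the highest RQ, the study's 27 markers and its housekeeping genes, apart from any not reported here. Other genes named, including Pdpn, Ibsp, Fkbp10, P3h1, Tmem38b, Igfbp7, Psph, Il34, Ocstamp, Serping1, Smad6, Ifit3b, Prrx1, Gm28006 and the fibrillar collagens called under the block, were chosen after their values were seen. Alternatives were TMM, DESeq2 (1.42.0) size factors and its Wald test, total counts, housekeeping scales omitting a gene, other count filters, a 20% minimum change, a replicate block, a covariate for replicate 1, all 24 libraries, and libraries left out. The scripts were tested on simulated data. Of the tested gene IDs, 18230 were found in GENCODE vM21 (GRCm38), and exons of 30 of 111 named genes with a position overlap another gene, whose reads may not be separate.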

Additional observations from a re-analysis of the deposited data

Results flagged for a closer look

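Of 220 groups of 4 libraries examined, 8 held a library far from its fellows by Dixon's test, which chance gives in about 1 group of 20. At day 21 the RQ of Lef1 was 3.92 in replicate 2 against 3.23 to 3.31 in the others, that of P4hb was 4104 in replicate 1 against 3510 to 3591, that of Ifi27l2a was 23.1 in replicate 1 against 15.8 to 17.03, and that of Isg15 was 19.8 in replicate 1 against 13.2 to 13.96. The summed RQ of the macrophage markers at day 21 was 10320 in replicate 3 against 8605 to 8879. At day 14 the RQ of Fkbp10 was 1757 in replicate 2 against 1691 to 1702, that of Phgdh was 126.7 in replicate 2 against 118.8 to 119.7, and that of Fdps was 303.2 in replicate 1 against 268.3 to 272.4. Replicate 1 was the one apart in 4 of the 8.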

How the results depend on the processing

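The count of called genes (2749, 1708 higher and 1041 lower) ranged from 1063 to 3715 when one library was left out (690 to 2576 higher, 373 to 1139 lower) and from 0 to 5336 when a replicate number was left out of both days (0 to 3400 higher, 0 to 1936 lower). Of 108 genes given with their own values, 100 lost the call without replicate 4, 61 without replicate 3 and 56 without replicate 2, and the cause was not tested. With the replicate block the count was 3998, and, in fits chosen after seeing the data, leaving out replicates 1 to 4 in turn under the block gave 5061 (3236 higher, 1825 lower), 1948, 2310 and 695 (486 higher, 209 lower). The block added the calls of Bglap, Ibsp, Col2a1 and Isg15 among the 108 genes and ended none of theirs. A covariate for replicate 1 gave 5325 (3197 higher, 2128 lower), all 24 libraries 1726 (1011 higher), and a minimum change of 20% 630 (483 higher, 147 lower). Fewer genes were lower on a scale without Sdha (534) and more with TMM (1770) or DESeq2 size factors (1794), with shares of higher calls of 72.1%, 51.5% and 51.2% against 62.1%. TMM ended the calls of Ptprz1, Twist1, Lrp5 and Nog, and the scale without Sdha those of Ank, Twist1, P4hb, Serpinh1, Csf1, Mmp9, Hspa5, Hspa9, Oas1a and Slc27a6. A scale without Actg1 ended those of P4hb, Serpinh1, Mmp9, Hspa5 and Oas1a, and one without Mrfap1 those of Twist1, Lrp5 and Nog. Among genes without a call, leaving out libraries or a replicate number took Col1a1 from -0.041 (without WT day 14 replicate 1, a reversal) to 0.25, and Dmp1 from -0.015 (without replicate 1, a reversal; -0.032 there with the block) to 0.49. In Het the count of 69 became 26 with TMM, 10 with total counts, 169 with a mean of at least 50 counts, 1203 with DESeq2 and 477 with the block, and 0 to 1122 without one replicate number. The difference between the genotypes stayed at 0 calls in edgeR and had 1 with DESeq2.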
